A study of Mus musculus with 11 samples.

Results

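RNA of livers that lack Hmgb2 was compared between mice given carbon tetrachloride (CCl4) and mice given oil, across all genes of the deposited count table. The comparison uses 5 of the 11 libraries of the series, chosen by the genotype and treatment in the sample labels. KO_CCL4 24, 25 and 15 are Hmgb2-/- livers after CCl4, and KO_Oil 11 and 12 are Hmgb2-/- livers after oil. The other 6 libraries, wild-type liver after oil (WT_Oil 1, 2 and 3) and after CCl4 (WT_CCL4 4, 5 and 6), set the response beside that of livers with the gene. All mice are labelled C57BL/6, and the controls of the comparison carry the same Hmgb2-/- genotype as the treated mice. Age, sex, CCl4 dose and schedule, the hour of collection and the deleted stretch of Hmgb2 are not given by the sources used here. Whether each library is a separate mouse is not stated either, so the p-values cover the variation among these libraries, part or all of which may be technical.

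CCl4 is a liver poison that the cytochrome P450 enzyme Cyp2e1 turns into a reactive radical inside hepatocytes near the central vein. Injured liver is known to respond with macrophage entry, hepatocyte division and the activation of stellate cells, which deposit collagen and other matrix. Hmgb2 bends DNA as part of chromatin, belongs to the high-mobility group proteins and is most abundant in dividing cells. Male mouse hepatocytes also secrete large amounts of major urinary proteins from a cluster of closely related Mup genes, and many liver genes follow the circadian clock.

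The 5 libraries held 7306082 (KO_Oil 11), 7506468 (KO_Oil 12), 9847383 (KO_CCL4 24), 11552295 (KO_CCL4 25) and 10136027 (KO_CCL4 15) counts on the genes of the table, and 18407 to 18911 genes had at least 1 count. Levels are given in CPM, the counts scaled to a TMM-adjusted library size. Hmgb2 itself had 0 and 7 reads after oil and 4, 5 and 4 reads after CCl4, against 17 to 118 reads in the wild-type libraries. The 0 reads in KO_Oil 11 allow up to 0.431 CPM, by counting error only. Genes for secreted hepatocyte proteins, the markers of the labelled tissue, summed to 37480 to 50920 CPM in the 5 libraries. Reads of 5 genes for pancreatic digestive enzymes (Cpa1, Cpb1, Ctrb1, Pnlip and Prss2) occurred in KO_CCL4 24 and 25 alone, with 48 and 70 reads in sum and 0 in each of the other 9 libraries. These 2 libraries have an E in their titles, the other 9 an S, and the part of these reads in any result was not tested.

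CCl4 changed 110 of 16866 tested genes in Hmgb2-/- liver (edgeR quasi-likelihood test, Benjamini-Hochberg adjusted p below 0.05, 0.652% of the genes tested). Of these, 56 rose (0.332%) and 54 fell (0.32%), and 55 of the rises and 47 of the falls were at least 2-fold. The 110 lie at 104 separate loci. All 110 had groups that did not overlap, as had 4991 of all tested genes (29.6%), 2625 of them higher (15.6%) and 2366 lower after CCl4 (14%). At an unadjusted p below 0.05 there were 2199 genes. In wild-type liver 1431 genes passed (8.48%), 1177 higher (6.98%) and 254 lower (1.51%). The Hmgb2-/- comparison has 1 oil library fewer than the wild-type comparison, so counts of calls do not compare the size of the responses. Of the 56 rises 23 were also called higher in wild-type liver and 1 lower, and the medians of the 56 log2 fold changes were 1.71 in Hmgb2-/- and 0.38 in wild-type liver. Of the 54 falls 21 were also called lower in wild-type liver and 1 higher, with medians of -2.75 and -0.93. These genes were chosen by their change in Hmgb2-/- liver, so larger medians there follow at least in part from the choice. The median over all tested genes was 0.02 in Hmgb2-/- and -0.02 in wild-type liver. The test of the difference between the responses called 17 genes (0.101%), 10 with a positive (0.0593%) and 7 with a negative difference (0.0415%), of which 8 are among the 110. None of the 17 passed without WT_Oil 3, KO_Oil 11 or KO_Oil 12 (1800, 1591 and 1980 genes at an unadjusted p below 0.05).

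The fewest of the 110 calls remained when KO_Oil 11 was left out, while leaving out KO_Oil 12 or KO_CCL4 24 kept similar numbers. A fit without KO_Oil 11 or without KO_Oil 12 keeps a single oil library, so here and below a call lost in it need not rest on the library left out. Without KO_Oil 11 none of the 56 rises and 7 of the 54 falls passed, and without KO_Oil 12 there remained 5 and 28. Without KO_CCL4 24 there remained 18 rises and 16 falls, without KO_CCL4 25 there remained 39 and 28, and without KO_CCL4 15 all 56 and 51. The 7 falls that passed whichever of the 5 libraries was left out were Mup15, Mup16, Mup17, Mup19, Mup21, Gm13775 and Susd4. Among the 56 rises, 42 had both KO_Oil libraries below all 9 others, beside 1101 of all tested genes (6.53%). Among the 54 falls, 35 had both above all 9 others, beside 1061 of all tested genes (6.29%). In each called gene both KO_Oil libraries already lay beyond all KO_CCL4 libraries, so shares above those of all genes were partly set by the choice. The 1101 and 1061 genes all lie among the 2625 higher and 2366 lower genes whose Hmgb2-/- groups did not overlap. By the adjusted p of the authors' deposited table, 323 of the tested genes passed (1.92%), 175 of them higher (1.04%).

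**Figure D1:**
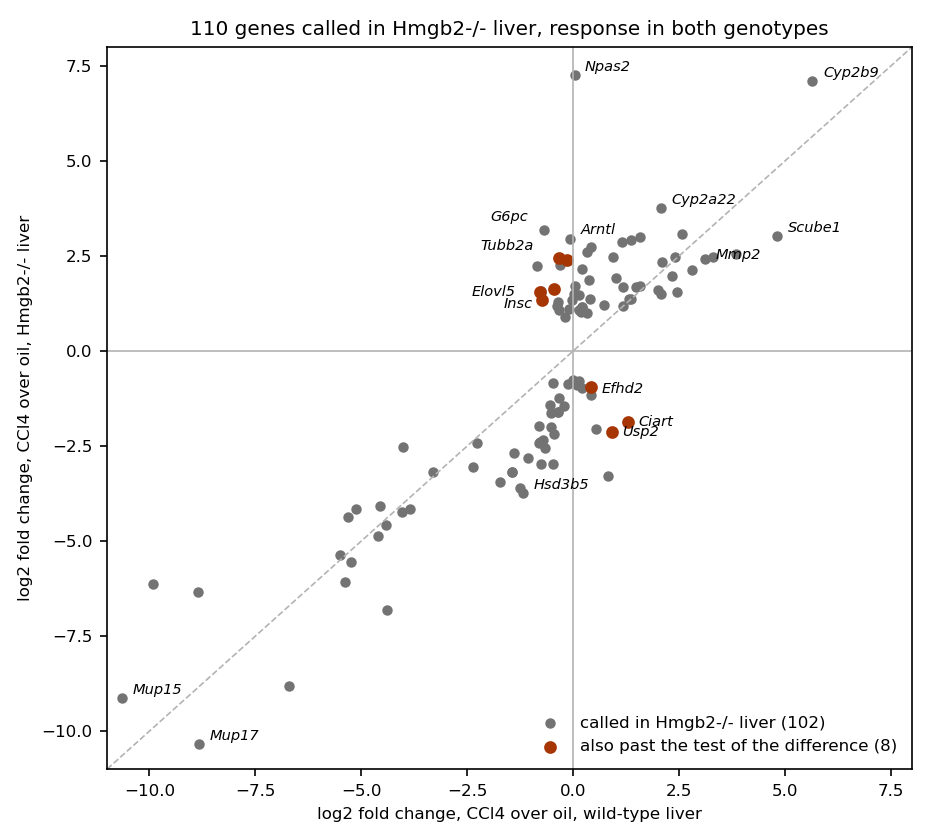
Log2 fold changes of the 110 called genes after CCl4 over oil, in wild-type liver on the x axis and in Hmgb2-/- liver on the y axis, with the line of equal response dashed. The 8 brown points also passed the test of the difference between the responses. Mup genes lie low in both genotypes, while G6pc, Arntl, Tubb2a and Elovl5 lie high in Hmgb2-/- and near or below 0 in wild-type liver.

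The deepest falls were in the Mup cluster on chromosome 4, whose products carry pheromones in the urine of male mice. Of 18 tested Mup genes 11 fell and none rose, with a median log2 fold change of -4.27 beside -4.86 in wild-type liver, where 16 fell. None of the 18 passed the test of the difference between the genotypes. The promoters of the 2 copies with the deepest falls are shown as an example of near-identical copies (RefSeq, GRCm38.p6, the 250 bases before the start site, minus strand). Mup17 at chr4:61595833-61596082 and Mup15 at chr4:61439705-61439954 share 98.8% of their bases, and the capitals mark the bases of Mup15 with no identical partner in Mup17. Other copies are less alike, with 78.8% of the bases of Mup17 in Mup14, 70.4% in Mup3, 67.2% in Mup21 and 47.2% in Mup7, and 90% to 97.2% in Mup2, Mup9, Mup10, Mup11, Mup18 and Mup19.
Mup17: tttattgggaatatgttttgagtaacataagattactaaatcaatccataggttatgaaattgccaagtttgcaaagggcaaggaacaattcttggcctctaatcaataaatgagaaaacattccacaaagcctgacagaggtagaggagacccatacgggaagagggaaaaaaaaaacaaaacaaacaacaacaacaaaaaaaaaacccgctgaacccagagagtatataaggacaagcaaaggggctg
Mup15: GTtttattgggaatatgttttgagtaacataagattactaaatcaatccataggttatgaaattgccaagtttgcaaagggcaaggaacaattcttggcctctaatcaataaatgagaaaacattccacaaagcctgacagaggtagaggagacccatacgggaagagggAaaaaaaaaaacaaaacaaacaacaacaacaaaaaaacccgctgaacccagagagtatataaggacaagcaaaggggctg

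Mup17 (ENSMUSG00000096688, chromosome 4, 61591929 to 61595871 on the minus strand of mm10) had 1801 and 254 CPM after oil and 0.580, 0.247 and 1.61 CPM after CCl4. The oil libraries differed widely from each other, yet both stood far above every CCl4 library. The log2 fold change was -10.34 (SE 0.95, adjusted p = 0.000429). Mup15 (ENSMUSG00000096674, 61435790 to 61439743, minus strand) went from 646 and 134 CPM to 0.871, 0.0824 and 1.21 CPM, 557-fold lower (log2 fold change -9.12, SE 0.74, adjusted p = 0.000345). Of the 50-base windows in the transcripts of Mup15 and Mup19 0%, and of Mup17 21.9%, occurred in no other gene's transcripts, so reads may be split between the copies and the level of a single copy is uncertain. For Mup21 the share was 80.7%. Mup21 (ENSMUSG00000066153, 62147932 to 62150863, minus strand) had 166 and 187 CPM after oil, close to each other, and 26.7, 13.2 and 18.3 CPM after CCl4, a 9.11-fold fall (SE of log2 0.36, adjusted p = 0.00219).

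Further copies differed in how far they fell. Mup16 had 202 and 70.1 CPM after oil and 6.38, 3.87 and 3.82 CPM after CCl4, a 29.0-fold fall. The abundant copies Mup14 and Mup7 went from 1447 and 541 to 51.6, 18.6 and 54.6 CPM, and from 2926 and 1664 to 84.1, 10.9 and 237 CPM. Mup1, Mup9, Mup10 and Mup18 also fell (adjusted p = 0.00352, 0.0298, 0.00928 and 0.00853). Mup19, with 58.3 and 8.15 CPM after oil, kept 2 reads in the 3 CCl4 libraries together, so no fold is given (adjusted p = 0.00233). Without KO_Oil 11 the calls of Mup1, Mup7, Mup9, Mup10, Mup14 and Mup18 were lost (adjusted p = 0.0568, 0.259, 0.4503, 0.109, 0.0659 and 0.0879). Mup7 was lost without KO_Oil 12 or KO_CCL4 24 as well (0.0923 and 0.158), Mup9 without KO_CCL4 24 or 25 (0.1075 and 0.0626), and Mup10 without KO_CCL4 24 (0.0594).

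The 2 most abundant copies after oil did not pass. Mup3 had 11609 and 10040.0 CPM after oil and 6352, 3562 and 6549 CPM after CCl4, lower in all 3 libraries (log2 fold change -0.98, SE 0.29, adjusted p = 0.165). Mup20, which encodes the pheromone darcin, had 4483 and 2678 CPM and then 1298, 757 and 1312 CPM (adjusted p = 0.0632). Mup11 and Mup12 were held up by KO_CCL4 15, with 234 and 236 CPM there, beside 5.71 and 1.40 CPM of Mup11 and 8.51 and 2.72 CPM of Mup12 in KO_CCL4 24 and 25. The 18 copies summed to 25700 and 16670 CPM after oil and to 7858, 4380 and 8664 CPM after CCl4, a ratio of the means of 3.04. Leaving out Mup3 and Mup20, a choice made after their values were seen, the sums were 9608 and 3953 against 207, 60.8 and 803 CPM, a ratio of 19. In bulk liver RNA fewer cells of a type and less RNA per cell cannot be told apart.

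**Figure D2:**
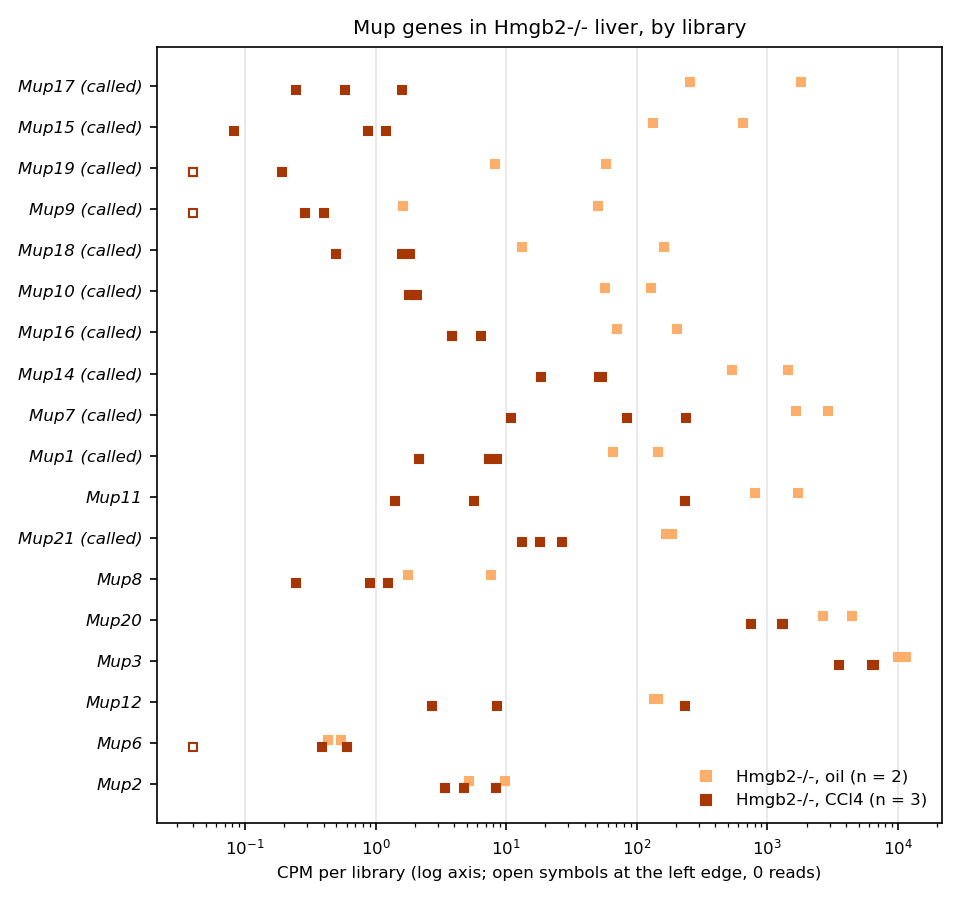
CPM (log axis) of 18 Mup genes in each library of Hmgb2-/- liver after oil (light, n = 2) and CCl4 (dark, n = 3), with open symbols at the left edge for 0 reads. In the 11 called genes every CCl4 library lies left of both oil libraries, while in Mup12 the library KO_CCL4 15 lies right of both.

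Gm13775, a transcript inside the Mup cluster that overlaps the pseudogene Mup-ps16, had 25.3 and 22.0 CPM after oil and 0.774, 0 and 0.101 CPM after CCl4. It was 81.2-fold lower (SE of log2 0.56, adjusted p = 0.000345), and its oil libraries lie closer to each other than those of Mup15 or Mup17. With the pseudogenes and Gm13775 counted, 16 of 25 tested features of the cluster fell. Of the 25, 22 had groups that did not overlap with CCl4 lower (14% of all tested genes). Outside the cluster Susd4, which encodes a membrane regulator of complement, went from 16.5 and 21.5 CPM to 2.13, 0.824 and 0.201 CPM, a 17.9-fold fall (log2 fold change -4.16, SE 0.47, adjusted p = 0.00219). In wild-type liver Susd4 fell by 3.85 on the log2 scale (adjusted p = 0.000577).

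Genes known for higher expression in male than in female mouse liver fell more often than they rose. Besides called Mup genes, these include Mup2, Mup3, Mup8, Mup11 and Mup20, which did not pass. The median and counts of this list thus partly repeat those of the Mup cluster. The median of 34 tested members was -1.29 beside 0.02 over all tested genes, and 24 had groups that did not overlap with CCl4 lower (14% of all tested genes). Of the 34, 10 fell, 8 of them Mup genes and the others Hsd3b5 and Gstp1, and none rose. Without KO_Oil 11 the count was 4, and without KO_CCL4 15 it was 14. Hsd3b5, a steroid dehydrogenase of male liver, went from 52.3 and 110.5 CPM to 13.1, 3.71 and 1.51 CPM, 13.4-fold lower (SE of log2 0.74, adjusted p = 0.0457), while the wild-type libraries after oil held 6.92 to 10.98 CPM. Gstp1, which conjugates glutathione to toxic compounds, went from 1585 and 1173 CPM to 438, 496 and 618 CPM, a 2.66-fold fall (SE of log2 0.25, adjusted p = 0.0298). Hsd3b5 was lost without KO_Oil 11 or 12 or KO_CCL4 25 (adjusted p = 0.160, 0.241 and 0.106), and Gstp1 without KO_Oil 11 or 12 or KO_CCL4 24 or 25 (0.264, 0.0544, 0.110 and 0.0595).

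Of 29 tested female-biased genes 3 rose and none fell, with a median of 0.60, and of 0.11 without KO_CCL4 24 and 25. By DESeq2 5 were higher and 1 lower, and 7 were higher and 2 lower without overlap (15.6% and 14% of all tested genes). The sums were 2372 and 3023 CPM after oil and 2088, 1549 and 12160 CPM in KO_CCL4 24, 25 and 15, so the sum was higher in KO_CCL4 15 alone. Cyp2b9, a P450 that is known to be low in male liver, had 2 reads in the KO_Oil libraries together and 25.2, 12.3 and 25.2 CPM after CCl4 (adjusted p = 0.00853). Cyp2a22 went from 1.15 and 1.90 CPM to 31.2, 12.7 and 18.7 CPM, 13.5-fold higher (SE of log2 0.59, adjusted p = 0.0157), although it overlaps the pseudogene Cyp2a21-ps. The water channel gene Aqp4 went from 2.01 and 3.67 CPM to 13.2, 15.8 and 23.0 CPM, a 6.05-fold rise (adjusted p = 0.0298), and the wild-type libraries after oil held 5.79 to 15.02 CPM. All 3 were lost without KO_Oil 11 (adjusted p = 0.160, 0.229 and 0.304) and without KO_Oil 12 (0.0952, 0.104 and 0.104). Socs2, which dampens growth hormone signalling, fell from 11.1 and 28.3 CPM to 5.03, 5.11 and 4.12 CPM (adjusted p = 0.0474), a call lost without each of KO_Oil 11 and 12 and KO_CCL4 24, 25 and 15 in turn (adjusted p = 0.0568, 0.3745, 0.139, 0.0828 and 0.0628).

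A few matrix genes passed the edgeR test as higher. Mmp2 encodes a gelatinase (ENSMUSG00000031740, on chromosome 8 at 92827291 to 92853420, plus strand, mm10). It had 3.01 and 3.13 CPM after oil and 17.6, 18.4 and 13.7 CPM after CCl4. Each group was tight, and the rise was 5.38-fold (log2 fold change 2.43, SE 0.26, adjusted p = 0.00196, and 0.05003 without KO_Oil 11, just past the threshold). Thbs2, a matricellular thrombospondin, had 2.73 and 3.53 CPM and then 16.3, 19.7 and 11.6 CPM (SE of log2 0.33, adjusted p = 0.00853). Col6a1, a chain of the beaded-filament collagen VI, had 10.2 and 8.56 CPM and then 31.0, 29.3 and 22.4 CPM (SE of log2 0.28, adjusted p = 0.0324). Aebp1, a secreted protein that binds collagen, went from 1.29 and 1.36 CPM to 8.03, 7.75 and 6.64 CPM, a 5.597-fold rise (adjusted p = 0.0417). In all 4 genes KO_CCL4 15 was the lowest of the CCl4 libraries. Thbs2, Col6a1 and Aebp1 were lost without KO_Oil 11 (adjusted p = 0.160, 0.225 and 0.316) or KO_Oil 12 (0.0618, 0.209 and 0.215), and Col6a1 and Aebp1 without KO_CCL4 24 (0.101 and 0.110) or 25 (0.0560 and 0.0643).

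Of 18 tested collagen genes 1 was called (Col6a1), while 13 had an unadjusted p below 0.05 and 8 were higher by DESeq2. By the authors' deposited adjusted p 9 were higher. Groups did not overlap, with CCl4 higher, in 13 of the 18 (15.6% of all tested genes). The median was 1.55 beside 2.30 in wild-type liver, where 14 rose. None of the 18 passed the test of the difference between the genotypes. The fibrillar collagen gene Col1a1 had 8.76 and 2.72 CPM after oil and 61.8, 55.6 and 15.996 CPM after CCl4, and missed the threshold (log2 fold change 2.96, SE 0.86, adjusted p = 0.161). Col3a1 had 32.9 and 21.7 CPM and then 159, 198 and 40.5 CPM (adjusted p = 0.192). The authors' deposited adjusted p was 0.0324 for Col1a1 and 0.0582 for Col3a1. KO_CCL4 15 lay well below KO_CCL4 24 and 25 in both, and without it 5 collagen genes passed, whereas without KO_CCL4 24 and 25 none did and the median was 0.64. Of 32 tested glycoproteins and proteoglycans 2 rose (median 1.34), and of 27 matrix proteases, inhibitors and crosslinking enzymes 1 rose (median 1.01). By DESeq2 11 and 8 members of these lists were higher, and by the authors' deposited adjusted p 10 and 6. In wild-type liver 24 and 17 members rose, and no member of either list passed the test of the difference between the genotypes.

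The 12 largest rises included the genes of the secreted proteins Scube1, Cpz and Igfbp1, the last described further below. Scube1, a secreted and cell-surface glycoprotein, went from 0.718 and 0.408 CPM to 5.22, 4.95 and 3.72 CPM, 8.14-fold higher (SE of log2 0.56, adjusted p = 0.0354). Cpz, a carboxypeptidase of the matrix, went from 0.574 and 0.136 CPM to 2.80, 3.71 and 2.62 CPM, 8.48-fold higher (SE of log2 0.54, adjusted p = 0.0298). Both rest on few reads after oil, 8 and 5 in the 2 libraries together. Scube1 was lost without KO_Oil 11 or 12 or KO_CCL4 24 or 25 (adjusted p = 0.232, 0.226, 0.101 and 0.0560), and Cpz without KO_Oil 11 or 12 or KO_CCL4 24 (0.103, 0.183 and 0.0704). Sytl5, a vesicle-trafficking protein, and Ahnak2, a large scaffold protein, rose 7.28-fold and 8.07-fold from 0.574 and 0.408 CPM and from 0.287 and 0.272 CPM, and both were lost without KO_Oil 11 (0.285 and 0.293) or 12 (0.241 and 0.208), or KO_CCL4 24 (0.101 and 0.1075) or 25 (0.0803 and 0.0626).

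Among the other called genes, 6 with roles in stroma or vessels were chosen after their values were seen and stand for no list. Sparcl1, a matricellular protein of vessels and stroma, went from 12.3 and 8.70 CPM to 28.6, 25.7 and 34.6 CPM (adjusted p = 0.00864). The endothelial receptor gene Cd93 went from 11.6 and 12.2 CPM to 30.8, 32.3 and 28.8 CPM, with each group tight (2.56-fold, SE of log2 0.19, adjusted p = 0.00746). Cd34, a surface glycoprotein of endothelium and fibroblasts, went from 2.58 and 2.31 CPM to 5.80, 9.48 and 7.24 CPM (adjusted p = 0.0483). The matrix protein genes Svep1 and Dpt rose 5.53-fold and 4.41-fold, and Lama5, a laminin chain of basement membranes, 2.32-fold. In wild-type liver Sparcl1, Cd93, Cd34, Svep1, Dpt and Lama5 rose as well (adjusted p from 0.000155 to 0.0353), and none passed the test of the difference between the genotypes (adjusted p from 0.371 to 0.958). Without KO_Oil 11 or 12 all 6 calls were lost, with adjusted p of 0.0568 and 0.0999 for Sparcl1, 0.131 and 0.0627 for Cd93, and up to 0.299 and 0.241 for the others. Without KO_CCL4 24 Cd34, Svep1, Dpt and Lama5 were lost (0.0704, 0.0843, 0.0871 and 0.115), and without KO_CCL4 25 Cd34 and Lama5 (0.0942 and 0.0781). Pdgfra, the receptor that marks stellate cells and fibroblasts, was the single call among 20 tested stellate cell and myofibroblast genes, with 9.48 and 12.5 CPM and then 23.0, 23.5 and 39.0 CPM (2.59-fold, adjusted p = 0.0450, lost without KO_Oil 11 or 12 or KO_CCL4 24 with 0.369, 0.147 and 0.0704). Acta2, the actin of myofibroblasts, had 0.287 and 1.63 CPM and then 2.71, 5.03 and 1.01 CPM, so the groups overlapped (adjusted p = 0.378). Of the 20 stellate cell and myofibroblast genes 9 were higher and 2 lower without overlap (15.6% and 14% of all tested genes). The median of this list was 0.59, beside 1.02 in wild-type liver. Of 22 tested liver endothelial genes none passed (6 at an unadjusted p below 0.05, 0 by DESeq2).

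**Figure D3:**
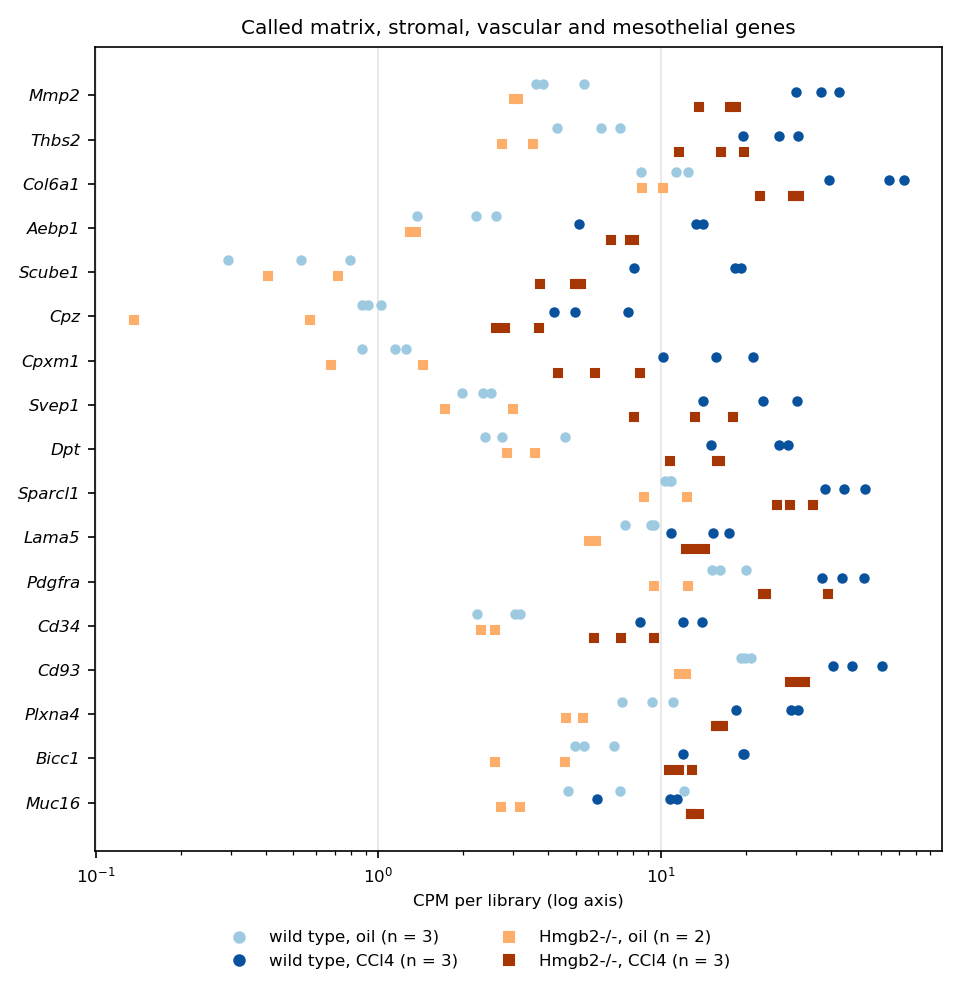
CPM (log axis) of 17 called matrix, stromal, vascular and mesothelial genes in each library of the 4 groups (circles, wild type, n = 3 a group; squares, Hmgb2-/-, n = 2 after oil and n = 3 after CCl4; light, oil; dark, CCl4). In every gene the 3 dark squares lie right of both light squares, and in Muc16 the wild-type groups overlap.

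Markers of mesothelium, the cell sheet that covers the liver, had a higher sum in every CCl4 library of Hmgb2-/- liver. The 11 tested genes summed to 24.3 and 23.4 CPM after oil and to 69.8, 67.8 and 67.2 CPM after CCl4, so all 3 libraries stood at nearly the same level. In wild-type liver the sums were 41.9, 56.0 and 31.3 CPM after oil and 60.5, 34.6 and 64.2 CPM after CCl4, which overlap. In Hmgb2-/- liver 9 of the 11 had groups that did not overlap with CCl4 higher (15.6% of all tested genes). The median was 1.93 (0.22 in wild-type liver), and 1 of the 11 was called. That gene, Muc16, a large membrane mucin of mesothelium, had 3.16 and 2.72 CPM and then 12.8, 12.8 and 13.7 CPM, a 4.44-fold rise (SE of log2 0.41, adjusted p = 0.0407). It was lost without KO_Oil 11 or 12 or KO_CCL4 24 or 25 (adjusted p = 0.295, 0.232, 0.104 and 0.0595). Msln, the gene of mesothelin, had 1.87 and 0.815 CPM and then 6.19, 4.29 and 4.83 CPM (adjusted p = 0.178). The part of mesothelial RNA in the matrix results was not tested.

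Several clock genes stood in the KO_Oil libraries at levels that no other library had. Arntl (Bmal1) with Clock or Npas2 is known to switch on genes through the E-box, the Rev-erb and Ror receptors act on Arntl through a further element, and Dbp, Tef and Hlf act through the D-box. Of 16 tested core clock genes 2 rose and 1 fell, and of 28 clock output genes 1 rose and 2 fell. The promoters of a called repressor, of a called D-box factor and of a period gene hold such motifs (RefSeq, GRCm38.p6, 250 bases before the start site). On either strand, the E-box CACGTG occurred 3 times before Ciart (chr3:95882229-95882478, minus strand) and 1 time before each of 2 start sites of Tef (the upstream window is chr15:81802423-81802672, plus strand), and the D-box TTANGTAA occurred 2 times before Per3 (chr4:151044666-151044915, minus strand). Of 32851 such windows 6.02% held an E-box and 2.06% a D-box, and neither motif, nor the Ror response element (2.04% of windows), was found in these windows of Arntl, Npas2 and Usp2. The 2 motifs do not overlap in the sequences, where capitals mark the E-box in Ciart and Tef and the D-box in Per3.
Ciart: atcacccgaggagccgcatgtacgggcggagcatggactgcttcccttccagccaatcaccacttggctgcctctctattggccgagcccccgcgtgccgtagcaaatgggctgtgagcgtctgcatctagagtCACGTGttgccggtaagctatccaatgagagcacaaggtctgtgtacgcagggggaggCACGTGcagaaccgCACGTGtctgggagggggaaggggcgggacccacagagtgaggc
Tef: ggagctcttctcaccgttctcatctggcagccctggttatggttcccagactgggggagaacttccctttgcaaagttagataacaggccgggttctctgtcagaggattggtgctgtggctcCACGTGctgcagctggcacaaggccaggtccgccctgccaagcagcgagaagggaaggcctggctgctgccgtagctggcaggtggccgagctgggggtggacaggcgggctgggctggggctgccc
Per3: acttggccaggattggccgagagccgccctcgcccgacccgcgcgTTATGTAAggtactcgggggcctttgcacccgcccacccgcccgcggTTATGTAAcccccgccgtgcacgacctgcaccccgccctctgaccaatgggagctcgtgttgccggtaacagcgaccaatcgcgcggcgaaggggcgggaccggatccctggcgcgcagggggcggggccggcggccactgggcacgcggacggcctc

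Of the activators, Arntl had 2.15 and 2.72 CPM after oil and 19.4, 6.35 and 31.7 CPM after CCl4, while the 6 wild-type libraries held 19.9 to 28.5 CPM. The CCl4 libraries spread widely around the wild-type level and both oil libraries lay far below it (7.78-fold, SE of log2 0.58, adjusted p = 0.0435). Reads of the overlapping gene Gm45355 may be counted with it. Npas2 had 0 reads in both KO_Oil libraries and 1.55, 1.07 and 2.82 CPM after CCl4, a rise of at least 8.65-fold when the oil group is set to its floor of 3 counts in sum (adjusted p = 0.0357), and the wild-type libraries held 1.60 to 3.18 CPM. Arntl was lost without KO_Oil 11 or 12 or KO_CCL4 24 (adjusted p = 0.325, 0.209 and 0.1075), and Npas2 without the same libraries (0.250, 0.170 and 0.0854). Clock had 55.4 and 61.8 CPM and then 117, 82.0 and 129 CPM and did not pass (adjusted p = 0.348).

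Of the repressors and outputs, Ciart had 22.8 and 24.6 CPM after oil and 3.58, 7.01 and 9.05 CPM after CCl4, a 3.62-fold fall (SE of log2 0.33, adjusted p = 0.0298). Wild-type liver held 2.44 to 4.58 CPM after oil and 6.97 to 10.2 CPM after CCl4, so Ciart rose there, and the responses differed by -3.15 on the log2 scale (adjusted p = 0.0259). Usp2, a deubiquitinase under clock control, had 49.96 and 39.0 CPM and then 8.12, 13.6 and 8.55 CPM, 4.38-fold lower (SE of log2 0.29, adjusted p = 0.00698), and the wild-type libraries held 4.88 to 15.1 CPM. Its response differed from the wild-type response by -3.05 (adjusted p = 0.0159). Tef had 288 and 294 CPM and then 146, 197 and 124 CPM (adjusted p = 0.0483), beside 117 to 131 CPM in wild-type liver. Ciart was lost without KO_Oil 11 or 12 or KO_CCL4 24 or 25 (adjusted p = 0.207, 0.147, 0.0704 and 0.0543), Usp2 without KO_Oil 11 (0.103), and Tef without KO_Oil 11 or 12 or KO_CCL4 24 (0.270, 0.197 and 0.166).

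Several clock genes shared the pattern without passing. Per3 had 97.2 and 93.0 CPM after oil and 32.7, 59.0 and 16.3 CPM after CCl4 (log2 fold change -1.40, SE 0.39, adjusted p = 0.147), with 5.79 to 8.09 CPM in wild-type liver after oil and 13.1 to 24.8 CPM after CCl4. Dbp had 123 and 144 CPM and then 39.2, 99.8 and 22.5 CPM (adjusted p = 0.191), beside 17.1 to 23.1 CPM in wild-type liver. Wee1, a cell cycle kinase with a clock-driven promoter, had 24.5 and 24.2 CPM and then 5.03, 12.2 and 3.82 CPM (adjusted p = 0.0970). In each of the 3 the order of the CCl4 libraries was the same, KO_CCL4 25 nearest to the oil libraries and KO_CCL4 15 farthest. Dbp and Wee1 were chosen after their values were seen. Tsc22d3, a glucocorticoid-induced leucine zipper listed with the clock outputs, rose from 85.0 and 71.8 CPM to 142, 199 and 183 CPM (adjusted p = 0.0407, and 0.225, 0.232, 0.0546 and 0.0781 without KO_Oil 11, KO_Oil 12, KO_CCL4 24 and KO_CCL4 25), beside 159 to 247 CPM in wild-type liver. With the hour of collection not given, time of day and treatment cannot be told apart in these genes.

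**Figure D4:**
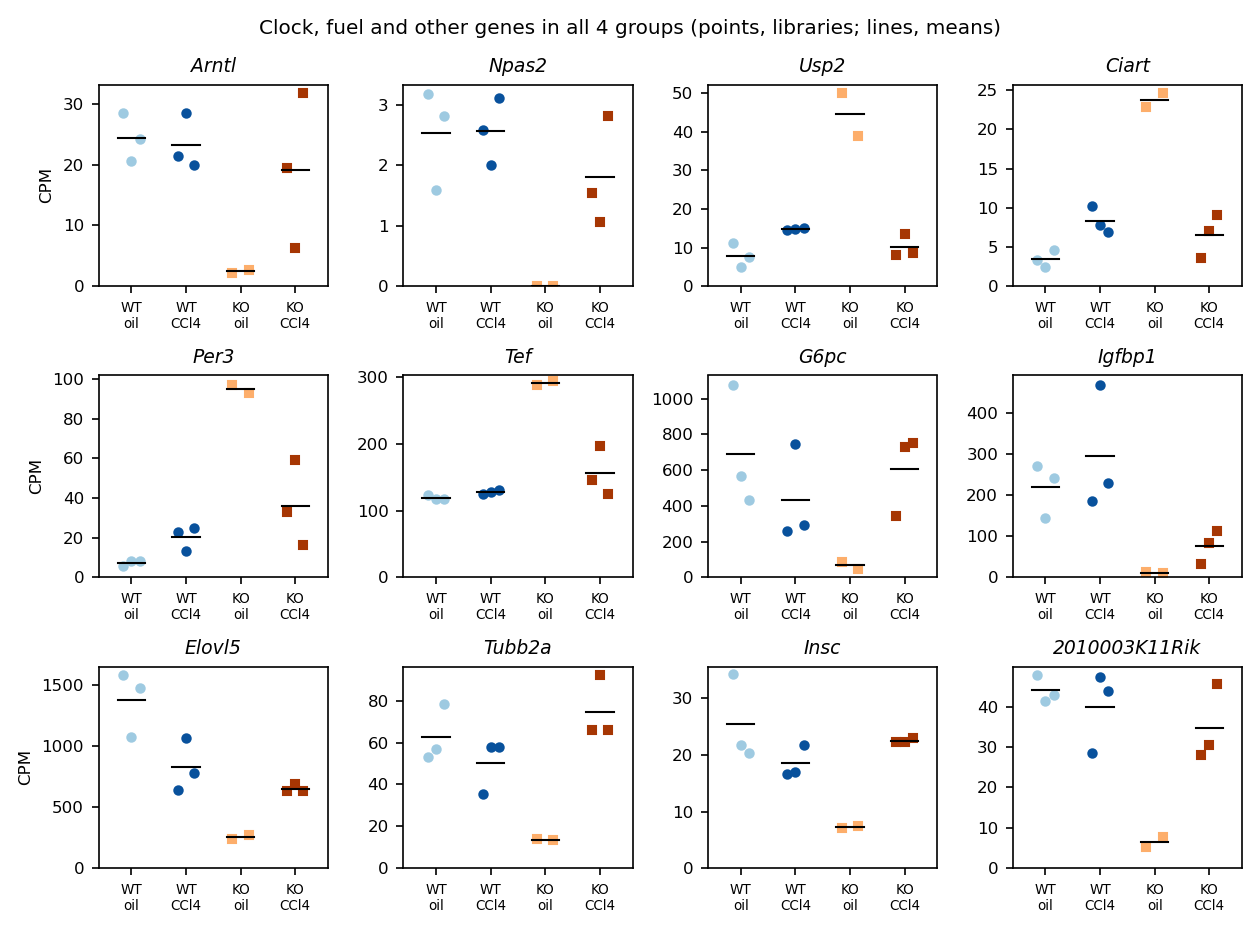
CPM of 12 clock, fuel and other genes in each library of the 4 groups, each panel from 0 on a linear axis, with a line at the group mean. In each of the 12 panels both KO_Oil libraries lie outside the range of the other 9.

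G6pc, Igfbp1 and Elovl5, genes of glucose and lipid metabolism, rose toward the levels of wild-type liver. G6pc, which encodes glucose-6-phosphatase, had 84.4 and 48.2 CPM after oil and 344, 729 and 753 CPM after CCl4 (adjusted p = 0.0332), with 434 to 1078 CPM in wild-type liver after oil. Its response differed from that of wild-type liver by 3.87 on the log2 scale, short of the threshold (adjusted p = 0.0662). Igfbp1, a secreted binding protein of insulin-like growth factors that insulin represses, had 12.3 and 10.5 CPM and then 32.8, 84.3 and 113 CPM (6.71-fold, SE of log2 0.55, adjusted p = 0.0454), still below the 146 to 469 CPM of wild-type liver. Elovl5, which elongates polyunsaturated fatty acids, had 238 and 277 CPM and then 631, 689 and 633 CPM (SE of log2 0.25, adjusted p = 0.0359). In wild-type liver Elovl5 had 1585, 1074 and 1473 CPM and then 640.2, 1068 and 782 CPM, and the responses differed by 2.07 on the log2 scale (adjusted p = 0.0387). Without KO_Oil 11 or 12 the adjusted p values were 0.223 and 0.221 for G6pc, 0.316 and 0.241 for Igfbp1, and 0.315 and 0.139 for Elovl5. Igfbp1 was lost also without KO_CCL4 25 (0.0711), and Elovl5 without KO_CCL4 24 or 25 (0.101 and 0.0643).

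Of 35 tested gluconeogenesis and glucose handling genes these 2 rose and none fell (median 0.18), and of 32 fatty acid synthesis and elongation genes Elovl5 alone rose (median 0.44). Other metabolic genes, chosen after their values were seen, had the same low level in the KO_Oil libraries. Slc16a1, a transporter of lactate and ketone bodies, went from 32.6 and 38.1 CPM to 100.1, 66.3 and 131 CPM, beside 121 to 179 CPM in wild-type liver. Gpd1, which links glycolysis to glycerol, went from 224 and 222 CPM to 476, 376 and 574 CPM, beside 432 to 709 CPM. Both passed (adjusted p = 0.0298 and 0.0498) and were lost without KO_Oil 11 (0.298 and 0.323) or 12 (0.131 and 0.238) or KO_CCL4 24 (0.0871 and 0.136). Of 30 lipoprotein and lipid droplet genes 2 fell and none rose (median 0.16). By DESeq2 3 of the 30 were higher and 3 lower, and 7 were higher and 4 lower without overlap (15.6% and 14% of all tested genes). Fitm1, which helps form lipid droplets, went from 15.4 and 12.4 CPM to 3.10, 3.30 and 0.704 CPM (5.75-fold, adjusted p = 0.0338), and Abcg8, a subunit of the sterol exporter of bile, from 137 and 170.2 CPM to 85.9, 87.0 and 77.1 CPM (adjusted p = 0.0433). Both were lost without KO_Oil 11 (0.260 and 0.132) or 12 (0.104 and 0.238), and without KO_CCL4 24 (0.0895 and 0.123), and Abcg8 without KO_CCL4 25 (0.0716).

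The CCl4 libraries differed among themselves in fatty acid oxidation and PPARA target genes. The 45 tested genes summed to 11550 and 14340 CPM after oil and to 16420, 15280 and 34000 CPM after CCl4, beside 37110 to 42440 CPM in wild-type liver after oil, so KO_CCL4 15 alone came near the wild-type sum. None passed (16 at an unadjusted p below 0.05, 7 higher by DESeq2), and 8 passed when KO_CCL4 24 and 25 were left out. Ehhadh, a peroxisomal beta-oxidation enzyme, had 197 and 304 CPM and then 351, 352 and 1331 CPM (adjusted p = 0.309). Cholesterol synthesis genes went the other way, with sums of 3116 and 3125 CPM after oil and 4402, 6805 and 2475 CPM after CCl4. Their median was 0.45 with all libraries, 0.81 without KO_CCL4 15 and -0.97 without KO_CCL4 24 and 25. The letter in the titles of KO_CCL4 24 and 25 and any difference in the treatment of these mice cannot be told apart.

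Retinoid and iron genes were also called. Cyp26a1, the P450 that degrades retinoic acid, had 9.33 and 7.47 CPM after oil and 71.3, 88.3 and 31.9 CPM after CCl4, 7.601-fold higher (SE of log2 0.55, adjusted p = 0.0359), while all 6 wild-type libraries held 1.07 to 8.64 CPM. Here the KO_CCL4 libraries, not the KO_Oil libraries, stood above all others. Hamp2, a copy of the hepcidin gene, had 21.1 and 16.7 CPM and then 70.9, 99.7 and 52.8 CPM (3.94-fold, SE of log2 0.30, adjusted p = 0.0117), above the 3.02 to 22.9 CPM of wild-type liver, where it rose too (log2 fold change 2.34, adjusted p = 0.000855). It overlaps Gm44662, which may share its reads. Cyp26a1 was lost without KO_Oil 11 or 12 or KO_CCL4 24 or 25 (adjusted p = 0.276, 0.224, 0.104 and 0.0601), and Hamp2 without KO_Oil 11 or 12 (0.122 and 0.112).

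Beside Elovl5, Ciart and Usp2, 5 called genes responded differently from wild-type liver. Tubb2a, a beta-tubulin, had 13.9 and 13.5 CPM after oil and 65.9, 92.3 and 66.1 CPM after CCl4, a 5.46-fold rise (SE of log2 0.28, adjusted p = 0.00219, and 0.0603 without KO_Oil 11), beside 35.5 to 78.4 CPM in all wild-type libraries. Insc, an adaptor protein of cell polarity, had 7.03 and 7.47 CPM and then 22.2, 22.3 and 23.0 CPM (3.10-fold, adjusted p = 0.0122), beside 16.6 to 34.3 CPM. The uncharacterised gene 2010003K11Rik had 5.31 and 7.75 CPM and then 28.0, 30.4 and 45.5 CPM (5.28-fold, adjusted p = 0.00393), beside 28.6 to 47.8 CPM. Efhd2, a calcium-binding protein, fell from 38.5 and 37.9 CPM to 19.1, 19.5 and 21.2 CPM (1.92-fold, adjusted p = 0.0154), beside 21.9 to 33.1 CPM. Gm43361, which overlaps the calcium pump gene Atp2a2, rose from 9.19 and 7.20 CPM to 29.8, 19.8 and 22.6 CPM (2.93-fold, adjusted p = 0.00864). In all 5 the KO_Oil libraries lay outside the range of the other 9. The differences between the responses were 2.77, 2.09, 2.54, -1.36 and 2.33 on the log2 scale (adjusted p = 0.0159, 0.0276, 0.0259, 0.0259 and 0.0159). Insc, 2010003K11Rik, Efhd2 and Gm43361 were lost without KO_Oil 11 (0.166, 0.0989, 0.160 and 0.0879), and Insc, Efhd2 and Gm43361 without KO_Oil 12 (0.0862, 0.0843 and 0.0999). Efhd2 was lost also without KO_CCL4 24 (0.0704).

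Small nucleolar and mitochondrial transfer RNAs had their highest sums in the KO_Oil libraries. The protocol names a total RNA kit and the design text capped RNA, so how fully such RNAs were captured is not known. The 151 tested small nucleolar RNAs, which guide the modification of ribosomal RNA, summed to 7191 and 3648 CPM after oil and to 1009, 1160 and 3010 CPM after CCl4, beside 1359 to 2043 CPM in wild-type liver after oil. Of these, 9 fell and 1 rose, 2 of the falls (Gm25053) being identifiers of the same locus with the same counts. Of the 151, 66 had groups that did not overlap with CCl4 lower (14% of all tested genes), and the median was -1.19 beside 0.01 over 13374 protein-coding genes. Mitochondrial transfer RNAs summed to 7855 and 3569 CPM and then to 947, 850 and 2523 CPM, and 5 of 20 fell (mt-Tt, mt-Tp, mt-Tw, mt-Tm and mt-Tq). In each class KO_Oil 11 was the highest and KO_CCL4 15 the highest of the CCl4 libraries. As examples chosen after their values were seen, Snora78 had 82.1 and 22.4 CPM and then 6.00, 7.67 and 10.8 CPM (adjusted p = 0.0226), and mt-Tt had 49.96 and 44.0 CPM and then 12.4, 12.3 and 21.5 CPM (adjusted p = 0.0214). Each called small nucleolar RNA overlaps another gene, Snora78 both Snhg9 and Rps2, so reads of those genes may be counted with it. Snora78 was lost without KO_Oil 11 or KO_CCL4 24 (0.270 and 0.0953), and mt-Tt without KO_Oil 11 or 12 or KO_CCL4 24 (0.212, 0.0819 and 0.0871).

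Of the 48 lists examined 31 held no call. None of 30 tested mitosis genes passed (0 at an unadjusted p below 0.05, 0 by DESeq2), with sums of 48.7 and 38.6 CPM after oil and 45.9, 76.7 and 34.5 CPM after CCl4, which overlap, and a median of 0.45. In wild-type liver 26 of the 30 rose (median 2.87). None of 20 infiltrating macrophage genes passed (5 at an unadjusted p below 0.05, 1 higher by DESeq2), beside 18 rises in wild-type liver. Their median was 0.67, beside 2.08 in wild-type liver. In Hmgb2-/- liver 9 of the 20 were higher and 1 lower without overlap (15.6% and 14% of all tested genes). No gene of these lists, mitosis or infiltrating macrophage, passed the test of the difference between the genotypes. Gpnmb, a marker of scar macrophages, had 6.32 and 0.544 CPM and then 27.6, 34.7 and 38.2 CPM (log2 fold change 3.30, SE 0.96, adjusted p = 0.160), against 53.5 to 272 CPM in wild-type liver after CCl4. Of 16 Kupffer cell genes, of the resident macrophages, none passed (7 at an unadjusted p below 0.05, 0 by DESeq2), with a median of -0.49 and 7 lower without overlap, beside 14% of all tested genes. Timd4, a receptor of resident Kupffer cells, had 19.4 and 16.7 CPM and then 7.45, 13.2 and 3.72 CPM (adjusted p = 0.183).

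Among zonation and injury genes, Cyp2e1 had 8122 and 9340.1 CPM after oil and 5751, 4801 and 8846 CPM after CCl4 (adjusted p = 0.638). Glul, the glutamine synthetase of the innermost pericentral hepatocytes, had 983 and 1224 CPM and then 916, 866 and 672 CPM, lower in all 3 but not past the test (log2 fold change -0.43, SE 0.27, adjusted p = 0.543). In wild-type liver Glul fell to 135, 249 and 151 CPM, and the difference between the responses, 2.11, was short of the threshold (adjusted p = 0.0570). None of 31 pericentral genes passed (8 at an unadjusted p below 0.05, 1 higher and 1 lower by DESeq2), and 14 were lower and 4 higher without overlap (14% and 15.6% of all tested genes), with Cyp2c37 nearest to the threshold (adjusted p = 0.0501). Cyp7a1, the rate-limiting enzyme of bile acid synthesis, had 681 and 473 CPM and then 124, 173 and 365 CPM (adjusted p = 0.220), and Cyp7b1, an enzyme of the alternative pathway, 139 and 176 CPM and then 39.8, 58.9 and 40.6 CPM (adjusted p = 0.0528). Cdkn1a, the p53 target p21, had 1 read after oil and 2.13, 0.989 and 15.5 CPM after CCl4 (adjusted p = 0.178). Hmgb1 and Hmgb3, the relatives of Hmgb2, had log2 fold changes of -0.17 and 0.13 (adjusted p = 0.847 and 0.893), and Timp1, Mki67, Adgre1 and Fgf21 did not pass either (adjusted p = 0.598, 0.963, 0.860 and 0.354).

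**Figure D5:**
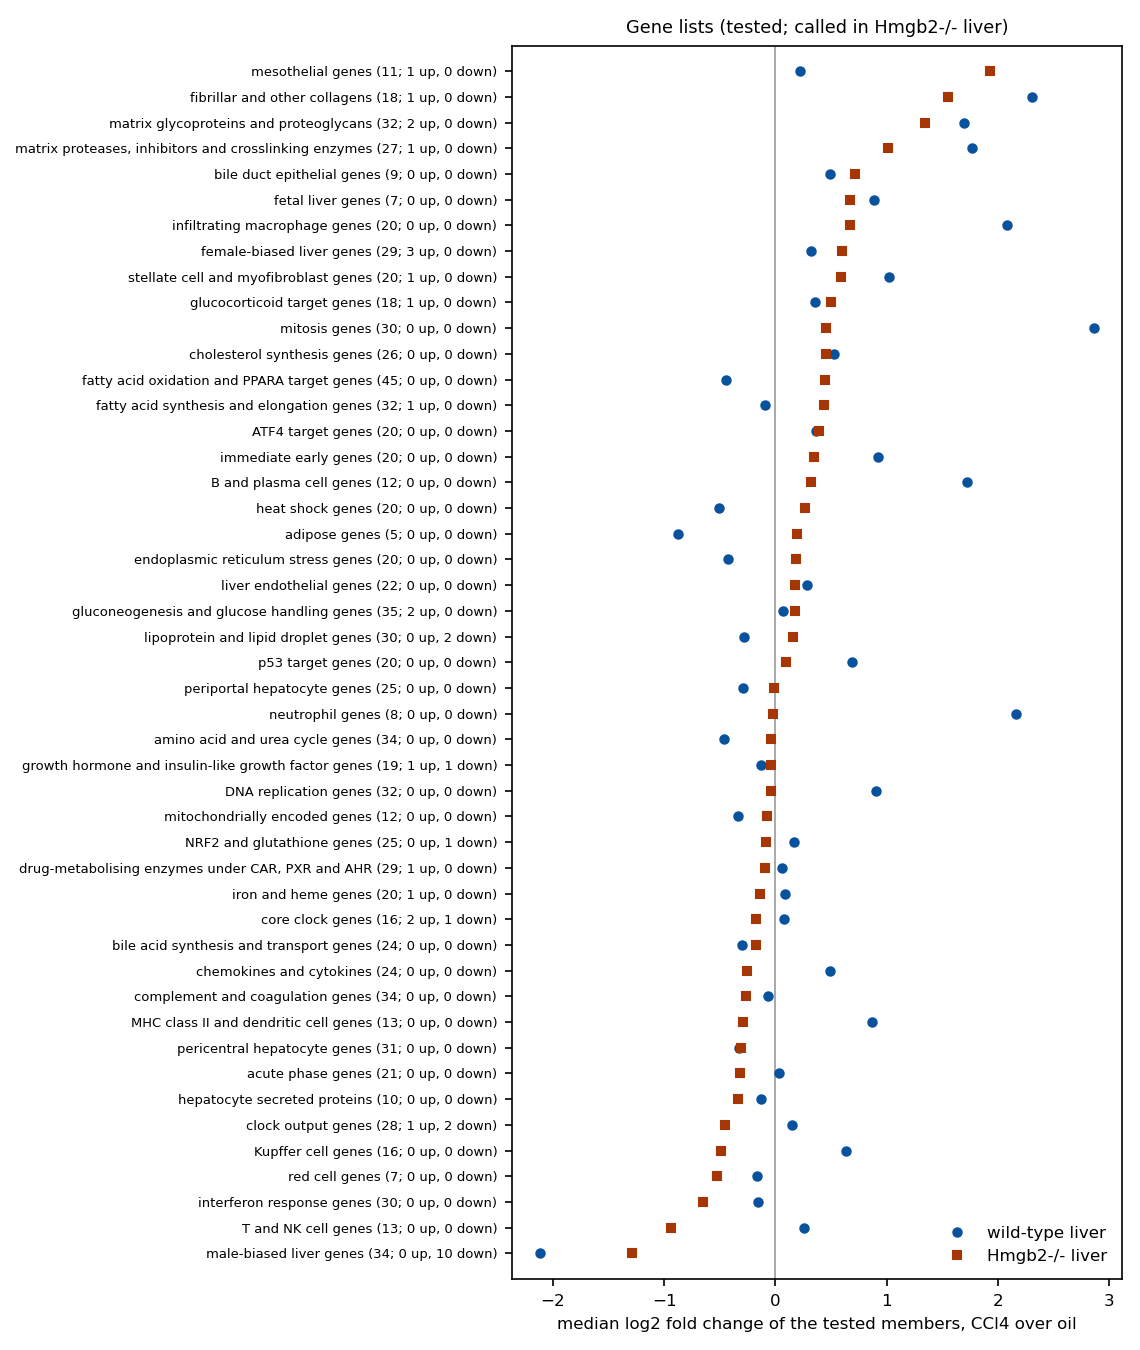
Median log2 fold change of the tested members of each gene list after CCl4 over oil, in wild-type liver (circles) and Hmgb2-/- liver (squares), with the number tested and called in Hmgb2-/- liver in the labels. The male-biased list lies lowest and the mesothelial and collagen lists highest in Hmgb2-/- liver, and the mitosis, collagen, neutrophil and infiltrating macrophage medians lie above 2 in wild-type liver alone. The pancreas list, given in the text as reads, is not drawn.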

How the data were processed

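Per the labels' protocols, RNA of livers frozen in liquid nitrogen went into stranded total RNA libraries for Illumina HiSeq sequencing, while the series' design text speaks of capped RNA. Which RNA was sequenced is thus not settled, and this bears on the levels of small nucleolar and transfer RNAs. Bowtie, DESeq2 and the mouse build mm10 (GRCm38) are named in the submitters' processing notes, without versions. The deposited values are whole-number counts per gene that the authors made with USeq, per the column descriptions beside the table, where a read pair overlapping a gene by at least 1 base counted 1 time. Use of strand and the treatment of reads matching several places are not stated by the sources used here, so overlapping and near-identical genes may share reads. The authors' deposited FPKM values entered no comparison. The authors' deposited log2 ratio was reversed in sign to give CCl4 over oil, and their deposited score, -10 times the log10 of an adjusted p, gave the authors' calls.

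Genes with enough counts (filterByExpr, minimum 10 in a library and 15 in sum) left 16866 of 19207, and 2341 were not tested. The 26 most abundant genes, which the authors listed apart, and 30438 genes listed as low were not analysed here. All 11 libraries entered 1 fit of 4 group means with edgeR 4.0.16 in R 4.3.3 (TMM scaling, quasi-likelihood test, Benjamini-Hochberg adjustment over all tested genes, called below 0.05). The method was tested on simulated data. SE is the log2 fold change divided by the square root of the F statistic. Groups come from the sample labels. No pair of replicates agreed within counting error. Alternatives were RLE and upper quartile scaling, no filter and a minimum mean of 5 CPM, DESeq2 1.42.0, limma 3.58.1 with voom, a fit of the 5 Hmgb2-/- or the 6 wild-type libraries alone, and each library left out.

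Named genes were the 12 top risers and 12 top fallers of the called genes whose groups do not overlap, at a mean of at least 1 CPM in the 5 libraries, the 6 most abundant called genes, called members of the 48 gene lists, called genes that passed whichever of the 5 libraries was left out, called genes that differed between genotypes, a fixed set around Hmgb2, fibrosis, division and zonation, and up to 2 members with the smallest p of each list without a call. Members and lists were chosen with earlier results of these data known. Promoters are from RefSeq, 66 of the 110 called genes having an entry, and Mup windows from the GENCODE transcripts of GRCm38, in which 16592 of 19139 matched genes had the same coordinates as the table.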

Additional observations from a re-analysis of the deposited data

Results flagged for a closer look

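The response to CCl4 differed between Hmgb2-/- and wild-type liver in 8 of the called genes, by the edgeR test of the difference itself. On the log2 scale the response in Hmgb2-/- liver minus that in wild-type liver was 2.77 for Tubb2a, 2.54 for 2010003K11Rik, 2.33 for Gm43361, 2.09 for Insc and 2.07 for Elovl5. It was -3.15 for Ciart, -3.05 for Usp2 and -1.36 for Efhd2. In the 5 genes with a positive value both KO_Oil libraries were the lowest of the 11, and in the 3 with a negative value the highest. None of the 8 passed without KO_Oil 11, without KO_Oil 12 or without WT_Oil 3. The part of the KO_Oil libraries' own state in these differences was not tested. No group held the 4 samples that a check for a library far from its group needs.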

How the results depend on the processing

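The count of 110 called genes was 110 with RLE scaling, 112 with upper quartile scaling, 118 without a filter, 76 with the stricter filter and 126 without KO_CCL4 24 and 25, of which 43 were among the 110. It was 390 with DESeq2 (215 higher), 55 with limma-voom (22 higher), 49 with the 5 Hmgb2-/- libraries alone, and 9 to 374 with 1 library left out, lowest without KO_Oil 11 and highest without KO_CCL4 15. In wild-type liver the count of 1431 was 766 with the stricter filter and 479 to 2268 with 1 library left out. The 17 genes that differed between genotypes became 372 with DESeq2, 257 without KO_CCL4 24 and 25, and 0 to 296 with 1 library left out. No named gene changed direction where it was called. Of the 47 called genes among the 123 named, 40 lost their call without KO_Oil 11, 31 without KO_Oil 12, 23 with limma-voom and 0 with DESeq2. The causes were not tested. Scaling moved the median of all genes by at most a few hundredths on the log2 scale (0.0105 to 0.0391) and turned the sign of the median of the periportal list alone, among 48. No paired analysis was possible because the groups share no replicate number. With 2 oil libraries a call rests on 1 estimate of spread pooled over all 11.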

Other observations

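Immune gene lists not described above held no call. Of 30 tested interferon response genes 0 passed with edgeR, 13 had an unadjusted p below 0.05, 2 were lower by DESeq2, and the median log2 fold change was -0.65, beside -0.16 in wild-type liver. Cxcl9, an interferon-induced chemokine, and Igtp, an interferon-induced GTPase, lay closest to the threshold, with log2 fold changes of -1.99 and -1.55 (adjusted p = 0.111 and 0.106). Of 13 T and NK cell genes 0 passed (3 at an unadjusted p below 0.05, 0 by DESeq2) and the median was -0.94, beside 0.26 in wild-type liver. Of 12 B and plasma cell genes 0 passed (0 at an unadjusted p below 0.05, 0 by DESeq2), with medians of 0.32 and 1.72.

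Bile duct markers had a median of 0.71 over 9 tested genes, 6 of them higher without overlap (15.6% of all tested genes), and 0 passed (4 at an unadjusted p below 0.05, 0 by DESeq2). Krt19, a keratin of bile duct cells, had 0.431 and 0.815 CPM after oil and 2.90, 1.81 and 2.21 CPM after CCl4 (adjusted p = 0.217). Of 34 complement and coagulation genes 0 passed (4 at an unadjusted p below 0.05, 0 by DESeq2), 19 were lower and 1 higher without overlap, beside 14% and 15.6% of all tested genes, and the median was -0.26.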
